A study of Rattus norvegicus with 6 samples.

Results

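The genes described here are 10 genes of glucose entry and its control, of the sorbitol, fructose and hexosamine routes, and of glycation, its prevention and its receptor. They were chosen by name, with no threshold on their values but with earlier results of these data known, and all 10 were found among the 22536 genes of the deposited expression table. RNA had been sequenced from 3 rats with painful diabetic neuropathy (PDN), the pain that can follow nerve damage in diabetes, and from 3 control rats. All 6 animals were male. The samples are labelled as sensory neuron, and the series title names the dorsal root ganglion, where the cell bodies of sensory nerves lie beside the spinal cord. The sources used here give neither the strain nor the age of the rats, nor how diabetes was brought about.

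Glucose crosses membranes through the facilitative transporters of the Slc2a (GLUT) family. Nerve tissue is a classic site of diabetic glucose damage, because many of its cells take up glucose without needing insulin. Inside the cell the polyol pathway reduces glucose to sorbitol and then oxidises sorbitol to fructose, the hexosamine pathway supplies the sugar for O-GlcNAc marks on proteins, and reactive by-products such as methylglyoxal form advanced glycation end products (AGEs). The protein encoded by Txnip binds thioredoxin and lowers the amount of glucose transporter at the cell surface. Its gene and the related gene Arrdc4 are switched on when glucose is plentiful by MondoA and ChREBP, factors that work with the partner Mlx.

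Levels are given in FPKM (fragments scaled to transcript length and to library size). The main comparison applied no further scaling between libraries. A constant that links the deposited tables, if read as library size, gives between 51900000 and 62800000 fragments per library. All 12 sensory neuron markers examined were at or above 1 FPKM in all 6 libraries, and so were all 6 satellite glia and all 6 Schwann cell markers, so each library mixes neurons with their supporting cells. In such bulk tissue, fewer cells of a type and less RNA per cell cannot be told apart. Control 2 and PDN 3 stood apart by their skeletal muscle genes, as described with Slc2a4.

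Of the 10 genes, Txnip was the 1 whose PDN and control libraries did not overlap, at about 1.46 times the control mean in PDN. The other 9 overlapped between the groups. Genes with at least 1 FPKM in at least 3 libraries, 13282 in all, were compared with limma on log2(FPKM + 1). Of the 10 genes, 9 entered this test and Ager did not. With Benjamini-Hochberg adjustment over all 13282 genes, 0 of the 9 passed an adjusted p of 0.05, and 0 genes of the table did (0%). At an unadjusted p under 0.05 there was 1 of the 9, Txnip, which was higher in PDN. Over all tested genes 627 (4.72%) reached that level, 1.83% higher and 2.89% lower in PDN. Libraries of the 2 groups did not overlap for 1 of the 9 and for 9.93% of all tested genes, and PDN lay above control for 3.69%. Among the 9, 4 estimates were higher and 5 were lower in PDN, with a median log2 difference of -0.003. Over all tested genes 5758 were higher and 7524 lower, with a median of -0.016. This balance depended on library scaling. After median-of-ratios scaling 6756 were higher and 6526 lower, with a median of 0.002, and the median of the 9 was 0.018.

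**Figure D1:**
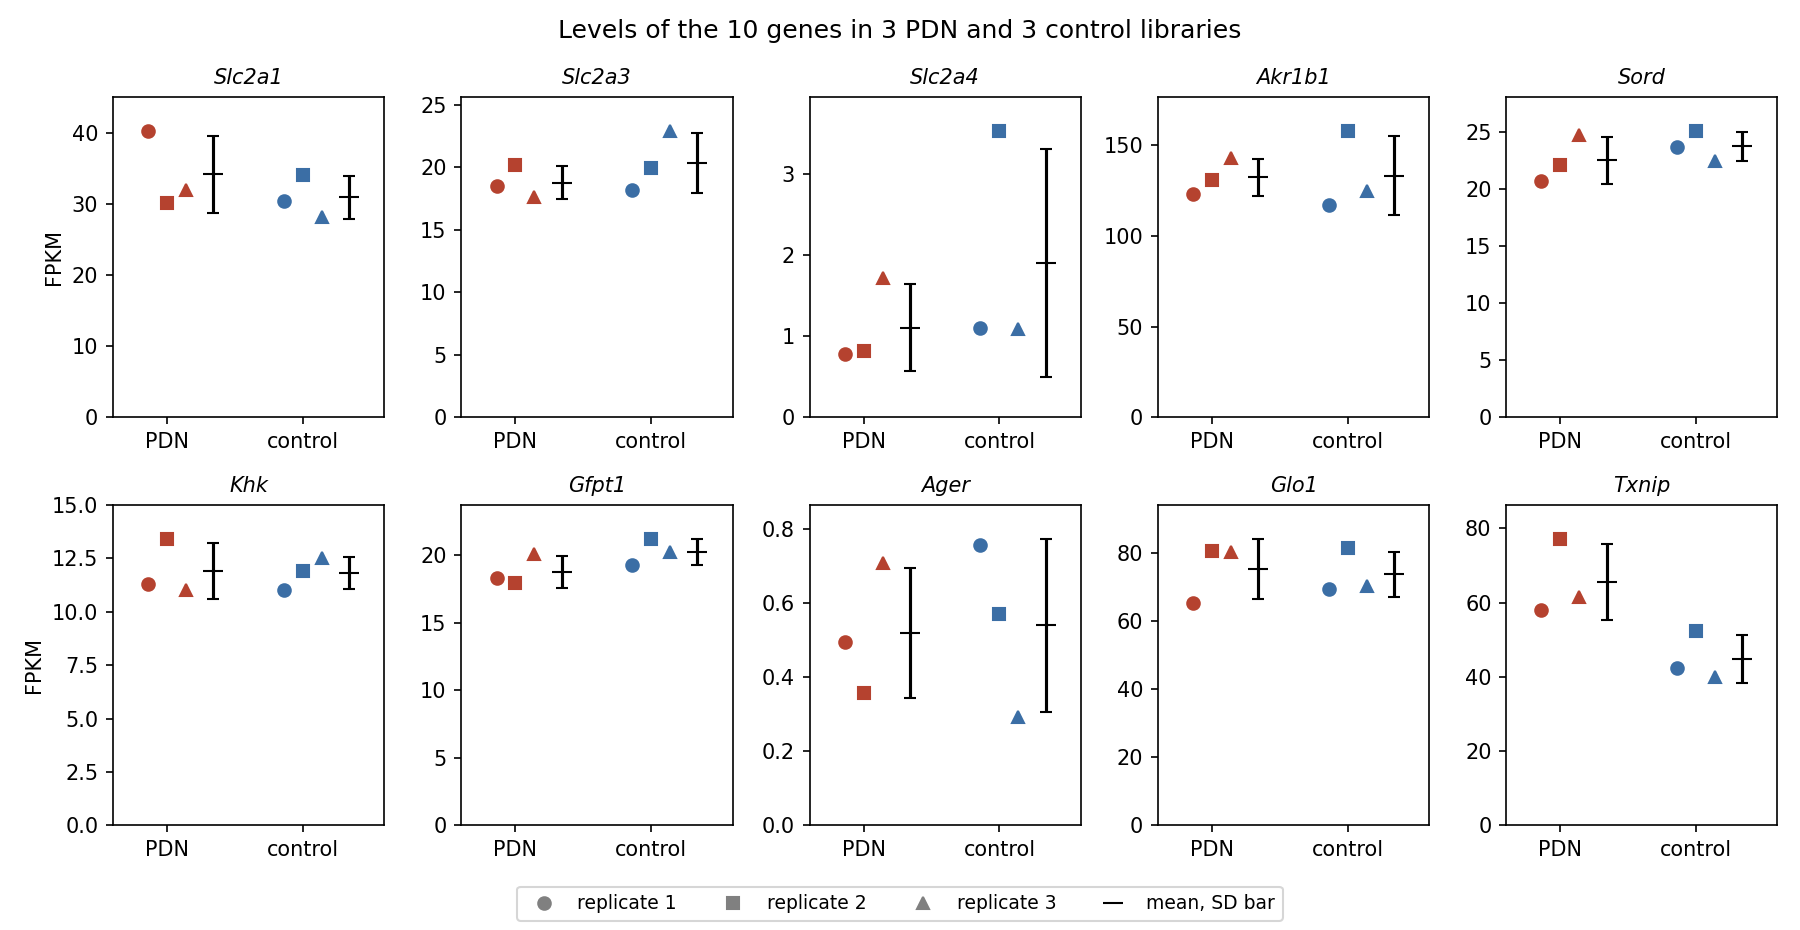
FPKM (vertical axes, each starting at 0) of the 10 genes in PDN and control libraries. Each point is 1 library, its shape is the replicate number, and the bar beside each group is the mean with its SD (n = 3). The 3 PDN points of Txnip lie at 58.1 to 77.2 FPKM, above its 3 control points at 40.1 to 52.3, while the points of the other 9 genes overlap.

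The order of the genes by level was nearly the same in every library. Akr1b1 was highest, followed by Glo1, Txnip and Slc2a1, in all 6 libraries. Sord, Slc2a3 and Gfpt1 took places 5 to 7 and changed places among themselves from library to library, with means over the 6 libraries of 23.1, 19.5 and 19.5 FPKM. Khk, Slc2a4 and Ager were in places 8, 9 and 10 in all 6 libraries. The mean of Akr1b1 exceeded that of 98.3% of the genes in the table, that of Glo1 96.2% and that of Txnip 94.6%. In contrast, Slc2a4 exceeded 44.9% and Ager 36.7%. The coefficient of variation over the 6 libraries was 6.34% for Gfpt1, the steadiest of the 10, and 24.7% for Txnip, 35.0% for Ager and 69.6% for Slc2a4. It lay between 7.41% and 13.1% for the other 6.

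The first step is entry through the membrane. Slc2a1 (ENSRNOG00000007284, chromosome 5, 138154673 to 138182897 in the file, whose genome build is not given) encodes GLUT1, the basal transporter that also carries glucose across barrier endothelium and perineurium. It was at 40.3, 30.2 and 32.0 FPKM in PDN 1, PDN 2 and PDN 3, against 30.5, 34.1 and 28.2 FPKM in control 1, control 2 and control 3. PDN 1 was the highest library, and the other 2 PDN libraries lay within the control range. The log2 difference was 0.13 ± 0.12 (SE; 95% interval -0.15 to 0.41; adjusted p = 0.999 in limma), and it was 0.012 without PDN 1 and 0.241 without both control 2 and PDN 3. The 6 endothelial markers found, of 7 listed, summed to 45.9 to 54.1 FPKM in PDN and 46.3 to 58.2 FPKM in controls, with 0 markers listed at 0, and PDN 1 had the lowest sum of all. Much of that sum was Cldn5, at 26.8 ± 1.32 FPKM in PDN and 21.6 ± 3.40 FPKM in controls, while the other 5 markers had lower estimates in PDN, with a median log2 difference over the 6 of -0.242. For Cdh5 and Egfl7 the PDN libraries lay below the controls, and for Cldn5 above them, beside 6.24% and 3.69% of all tested genes. The part of endothelial cells in the level of Slc2a1 was not tested.

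Slc2a3 (ENSRNOG00000049298, chromosome 4, 155752447 to 155763500) encodes GLUT3, the high-affinity transporter of neurons. It was at 18.5, 20.2 and 17.6 FPKM in PDN 1, PDN 2 and PDN 3, against 18.2, 19.9 and 22.9 FPKM in the 3 controls. The groups overlapped, with control 3 the highest and PDN 3 the lowest library. The log2 difference was -0.11 ± 0.10 (SE; 95% interval -0.34 to 0.12; adjusted p = 0.999 in limma). The difference was -0.022 without control 3 and -0.18 without control 1. The neuron markers summed to 5986 to 6845 FPKM in PDN and 6218 to 7014 FPKM in controls, also overlapping. The ratio of Slc2a1 to Slc2a3 within a library, which does not depend on library scaling, was 2.18, 1.49 and 1.82 in PDN and 1.68, 1.71 and 1.23 in controls. The ratios overlapped, and the difference of their log2 means was 0.25 (exact two-sided permutation p = 0.4, where 3 libraries against 3 cannot go below 0.1). That difference was 0.115 without PDN 1, 0.095 without control 3 and 0.331 without both control 2 and PDN 3.

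Slc2a4 (ENSRNOG00000017226, chromosome 10, 56552983 to 56558487) encodes GLUT4, the transporter that insulin brings to the surface of muscle and fat cells. It was at 0.784, 0.813 and 1.72 FPKM in PDN 1, PDN 2 and PDN 3, against 1.1, 3.53 and 1.09 FPKM in the 3 controls. Control 2 was highest by a wide margin and PDN 3 came next, and the groups overlapped. It passed the filter through 1 PDN library and the 3 controls. The log2 difference was -0.39 ± 0.32 (SE; 95% interval -1.15 to 0.36; adjusted p = 0.999 in limma), it was -0.022 without control 2, and -0.22 without both control 2 and PDN 3.

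The same 2 libraries were the highest in skeletal muscle genes. The 6 muscle markers found, of 7 listed, summed to 159.9, 128.9 and 276.3 FPKM in PDN 1, PDN 2 and PDN 3, against 133.5, 606.7 and 96.85 FPKM in controls. This sum includes Pvalb, which sensory neurons also express and which was at 95.1 to 145 FPKM everywhere. The defining gene Acta1, which encodes skeletal muscle actin, was at 13.3, 1.35 and 68.8 FPKM in PDN, against 1.11, 193 and 1.11 FPKM in controls. Tnnt3 was listed at 0 in PDN 2 and Mylpf in control 3. In PDN 1, Acta1 was at 13.3 FPKM and Slc2a4 at 0.784 FPKM, its lowest value, close to the 0.813 FPKM of PDN 2. Adipocyte markers were near 0, with the 5 together at 0.368 to 0.602 FPKM in PDN and 0.43 to 1.28 FPKM in controls, and with Lep listed at 0 in all 6 libraries. How much of the Slc2a4 signal comes from muscle was not tested.

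**Figure D2:**
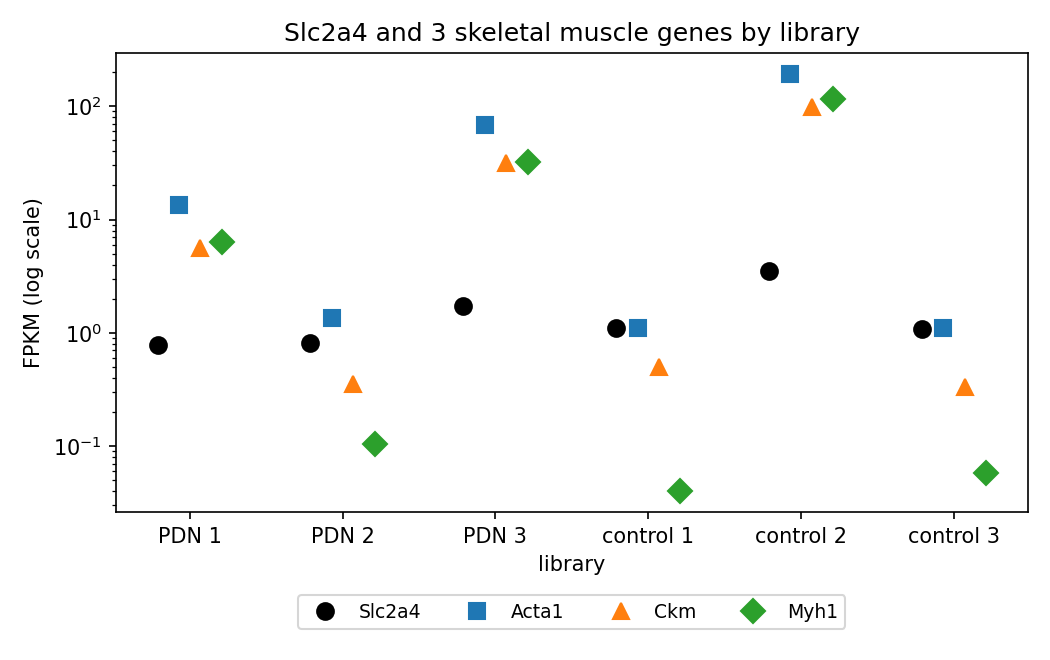
FPKM (vertical log axis) of Slc2a4 and of the skeletal muscle genes Acta1, Ckm and Myh1 in each library (horizontal axis, PDN at the left), with 1 point per gene and library. PDN 3 is second and control 2 highest for all 4 genes, with Acta1 at 68.8 FPKM in PDN 3 and 193 FPKM in control 2, and Slc2a4 at 1.72 FPKM in PDN 3 and 3.53 FPKM in control 2.

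The pattern of Slc2a4 over the 6 libraries was most like those of Mlf1, Mpc1 (a subunit of the mitochondrial pyruvate carrier) and Flnc (a filamin of muscle). Their centred log2(FPKM + 1) values differed from those of Slc2a4 by a root mean square of 0.151, 0.173 and 0.176 over 6 libraries. Each of the 3 was highest in control 2, at 4.4 FPKM for Mlf1, 59.2 for Mpc1 and 4.79 for Flnc. By the same measure the genes most like Slc2a1 were Pcdhga9 (0.0332), Cyb5r3 (0.042) and Cep164 (0.0468). Cyb5r3, a reductase of cytochrome b5, was at 106 FPKM in PDN 1 and between 80.7 and 89.8 FPKM elsewhere, so it too was highest in PDN 1. Among 13282 genes some will match any pattern of 6 values closely.

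The 12 genes of the Slc2a family found in the table summed to 102 ± 4.02 FPKM in PDN and 102 ± 2.98 FPKM in controls (SD, n = 3 each; exact two-sided permutation p = 1). Slc2a1 made up 37.8%, 30.6% and 31.7% of that sum in PDN 1, PDN 2 and PDN 3, against 30.9%, 32.6% and 27.5% in the controls. Slc2a1 and then Slc2a6, a transporter of internal membranes, were the first and second of the family in all 6 libraries. Slc2a3 made up 17.4% to 20.5% in PDN and 18.5% to 22.3% in controls. Slc2a8, another transporter of internal membranes, was close to it, at 17.2 ± 0.752 FPKM in PDN and 17.8 ± 0.631 FPKM in controls. Slc2a4 was at most 1.7% of the sum in PDN and 3.38% in controls.

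**Figure D3:**
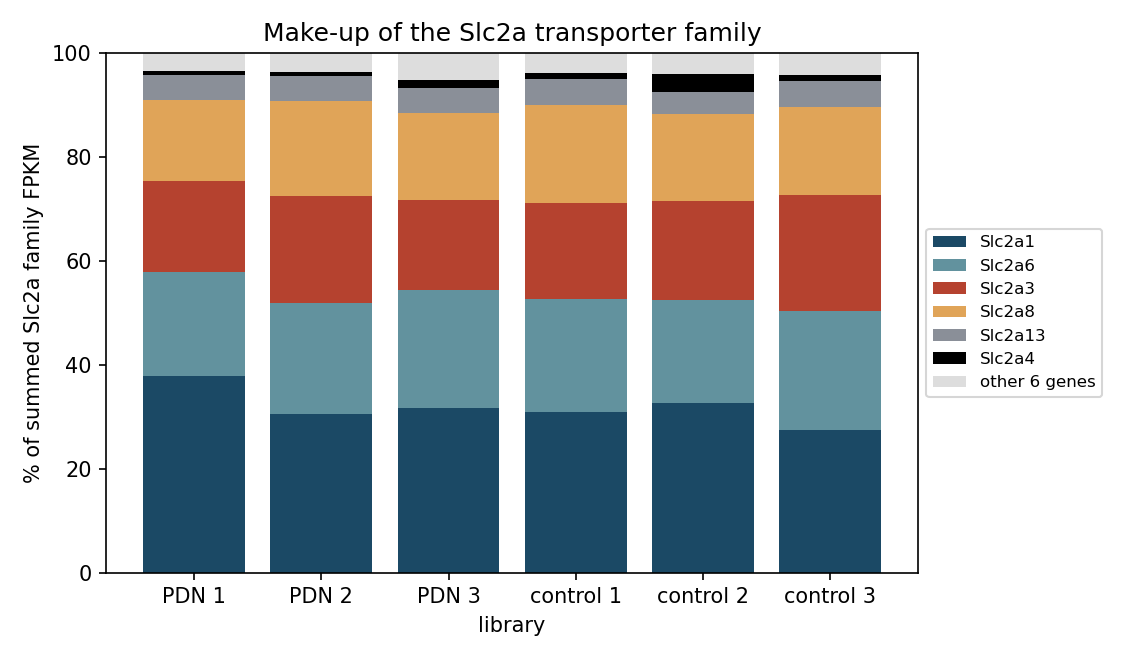
Share of the summed FPKM of the 12 Slc2a genes (vertical axis, percent) taken by each gene in each library (horizontal axis, PDN at the left). Slc2a1 is the largest share in all 6 libraries, with 37.8% in PDN 1 as its highest and 27.5% in control 3 as its lowest value, and Slc2a4 is widest in control 2 at 3.38%.

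Of 11 other genes listed from the families of hexose transporters, not all of which need carry hexoses, 5 were tested. There were 3 estimates higher and 2 lower in PDN, 0 at an unadjusted p under 0.05, and a median log2 difference of 0.009. Slc2a6 and Slc2a8 were the most abundant of them. Slc2a6 was at 21.7 ± 1.02 FPKM in PDN and 21.9 ± 1.39 FPKM in controls (SD, n = 3 each). The 10 genes that store and move GLUT4 vesicles were all tested, with 3 higher and 7 lower, 0 at an unadjusted p under 0.05 and a median of -0.031. The groups did not overlap for 1 of these 10, Vamp3, beside 9.93% of all tested genes. Vamp3 was at 24.4 to 28.1 FPKM in PDN and 28.8 to 34.7 FPKM in controls (adjusted p = 0.999 in limma). Vamp2, a vesicle fusion protein that neurons use at synapses as well, was the most abundant at 104 ± 15.7 FPKM in PDN and 97.0 ± 15.4 FPKM in controls. Rab10, a small GTPase that carries these vesicles to the surface, came next, at 68.5 to 72.3 FPKM in PDN and 72.3 to 73.8 FPKM in controls.

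The polyol pathway starts with aldose reductase, the enzyme that makes sorbitol from glucose and that in peripheral nerve is known from Schwann cells. Its gene Akr1b1 (ENSRNOG00000009513, chromosome 4, 61706864 to 61720956) was at 123, 131 and 143 FPKM in PDN 1, PDN 2 and PDN 3, against 117, 158 and 125 FPKM in the 3 controls. The controls held both the lowest and the highest library, and all 3 PDN libraries lay between them. The log2 difference was -0.003 ± 0.12 (SE; 95% interval -0.28 to 0.28; adjusted p = 1 in limma), and its sign turned with the scaling of the libraries. The 6 Schwann cell markers summed to 3296, 3316 and 3939 FPKM in PDN, against 3453, 4072 and 3304 FPKM in controls, with 0 markers listed at 0. Control 2 and PDN 3 were thus the 2 highest libraries for both Akr1b1 and the Schwann cell sum, and the part of Schwann cells in the level of Akr1b1 was not tested.

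Sord (ENSRNOG00000017291, chromosome 3, 114176309 to 114207366) encodes sorbitol dehydrogenase, which turns sorbitol into fructose. It was at 20.7, 22.1 and 24.8 FPKM in PDN, against 23.7, 25.1 and 22.5 FPKM in controls. PDN 1 and PDN 2 were the 2 lowest libraries, but PDN 3 lay above 2 of the controls, so the groups overlapped, with a log2 difference of -0.08 ± 0.08 (SE; 95% interval -0.28 to 0.12; adjusted p = 0.999 in limma). That difference was -0.021 without PDN 1 and -0.146 without PDN 3. The ratio of Akr1b1 to Sord was 5.96, 5.91 and 5.77 in PDN, against 4.95, 6.29 and 5.55 in controls. The PDN ratios lay close together inside the wider control range (log2 SD 0.025 in PDN and 0.17 in controls), and the log2 means differed by 0.078 (exact two-sided permutation p = 0.6).

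Of the 11 genes listed for aldehyde reduction and osmolytes, 8 were tested, with 5 estimates higher and 3 lower in PDN, 0 at an unadjusted p under 0.05 and a median of 0.026. Akr1a1, aldehyde reductase, was more abundant per length than Akr1b1, at 310 ± 22.8 FPKM in PDN and 296 ± 12.3 FPKM in controls. Aldh2, the mitochondrial aldehyde dehydrogenase, was the next most abundant of the list, at 24.7 to 34.8 FPKM in PDN and 28.0 to 31.3 FPKM in controls. Akr1b8, a close relative of Akr1b1 that lies beside it on chromosome 4 (61771510 to 61835727), had the widest estimate of the list. It was at 9.73 ± 4.39 FPKM in PDN and 5.94 ± 1.09 FPKM in controls, with a log2 difference of 0.54 ± 0.31 (SE; 95% interval -0.19 to 1.28; adjusted p = 0.999 in limma). Its lowest PDN library, at 4.86 FPKM, lay below its lowest control at 4.9. How fragments that fit both genes were shared between them is not stated in the labels.

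Fructose made by Sord is phosphorylated by ketohexokinase, the product of Khk (ENSRNOG00000008047, chromosome 6, 26810579 to 26820959). Khk was at 11.3, 13.4 and 11.0 FPKM in PDN, against 11.0, 11.9 and 12.5 FPKM in controls. The ranges nearly coincided, with a log2 difference of 0.01 ± 0.09 (SE; 95% interval -0.21 to 0.23; adjusted p = 1 in limma). Aldoc, the aldolase of neural tissue, was at 265 ± 12.7 FPKM in PDN and 245 ± 4.73 FPKM in controls. The PDN libraries of Aldoc lay above the controls by a small margin, 252 against 251 FPKM, as for 3.69% of all tested genes. Its log2 difference was 0.11 ± 0.06 (SE), with an adjusted p of 0.999 in limma. Of the 6 listed genes of fructose metabolism and fructosamine repair, 5 were tested, with 3 higher and 2 lower, 0 at an unadjusted p under 0.05 and a median of 0.092. Fn3krp, a kinase related to the fructosamine repair enzyme, was the second most abundant of them, at 17.7 to 18.6 FPKM in PDN and 18.2 to 20.4 FPKM in controls.

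Gfpt1 (ENSRNOG00000018507, chromosome 4, 118852062 to 118901591) encodes the enzyme that commits fructose 6-phosphate to the hexosamine pathway. It was at 18.3, 17.9 and 20.1 FPKM in PDN, against 19.3, 21.2 and 20.2 FPKM in controls. PDN 1 and PDN 2 were the lowest libraries and PDN 3 lay between control 1 and control 3, so the groups overlapped. The log2 difference was -0.10 ± 0.07 (SE; 95% interval -0.27 to 0.07; adjusted p = 0.999 in limma). Its estimate was negative under every alternative processing tried, with an unadjusted p of at least 0.104 in limma. Those of Slc2a3, Slc2a4 and Sord also stayed negative wherever they could be fitted. The second enzyme of this step, Gfpt2, was far lower, at 1.96 ± 0.321 FPKM in PDN and 1.68 ± 0.248 FPKM in controls.

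All 8 hexosamine and O-GlcNAc genes found, of 9 listed, were tested, with 4 higher and 4 lower in PDN and a median of -0.004. Oga, the enzyme that removes O-GlcNAc from proteins, was the 1 of these 8 at an unadjusted p under 0.05, beside 4.72% of all tested genes. It was at 61.9, 74.2 and 65.8 FPKM in PDN, against 54.0, 56.4 and 57.2 FPKM in controls. All 3 PDN libraries lay above the controls, with a log2 difference of 0.26 ± 0.08 (SE), an unadjusted p of 0.0124 and an adjusted p of 0.999 in limma. Ogt, which adds the mark, was at 31.6, 31.2 and 32.6 FPKM in PDN, against 28.4, 33.2 and 33.2 FPKM in controls, and its groups overlapped.

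Methylglyoxal is cleared by glyoxalase 1, the product of Glo1 (ENSRNOG00000000541, chromosome 20, 9273594 to 9291610). Glo1 was at 65.2, 80.4 and 80.3 FPKM in PDN, against 69.3, 81.3 and 70.2 FPKM in controls. PDN 1 was the lowest and control 2 the highest library. The log2 difference was 0.03 ± 0.11 (SE; 95% interval -0.22 to 0.28; adjusted p = 0.999 in limma). The second enzyme of that route, Hagh, was at 35.3 ± 3.12 FPKM in PDN and 37.8 ± 2.69 FPKM in controls (SD, n = 3 each). Within libraries, Gfpt1 stood to Glo1 as 0.281, 0.222 and 0.25 in PDN and as 0.278, 0.26 and 0.287 in controls (exact two-sided permutation p = 0.3), and Akr1b1 stood to Glo1 as 1.89, 1.62 and 1.78 in PDN and as 1.69, 1.95 and 1.78 in controls (exact two-sided permutation p = 0.8). After Benjamini-Hochberg adjustment over the 4 ratios examined, each adjusted p was 0.8.

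Ager (ENSRNOG00000000439, chromosome 20, 4363152 to 4366079) encodes RAGE, the receptor for AGEs, whose highest expression in the body is in lung. It was at 0.495, 0.359 and 0.708 FPKM in PDN, against 0.758, 0.57 and 0.293 FPKM in controls. It stayed under 1 FPKM in all 6 libraries and so has no test, and the controls held both the highest and the lowest value. Its whole locus of 2928 bases lies within the span the file gives for LOC103689965, at 2.18 to 6.54 FPKM in PDN and 3.5 to 5.28 FPKM in controls. The labels do not state whether reads were assigned by strand, so part of the Ager value may be uncertain.

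Of 14 genes listed for glycation defence and as ligands or partners of RAGE, 11 were tested, with 5 higher and 6 lower in PDN, 0 at an unadjusted p under 0.05 and a median of -0.036. The ligand genes S100b and S100a6 were the most abundant of the list. S100b, which glia express strongly, was at 601 ± 25.6 FPKM in PDN and 636 ± 113 FPKM in controls, and S100a6 at 376 ± 51.0 FPKM in PDN and 347 ± 54.0 FPKM in controls (SD, n = 3 each). The transcript of the receptor was thus scarce, while those of S100b and S100a6 were among the abundant ones. Other genes of the list were lower. Over the 6 libraries Hmgb1 and S100a4 had means of 10.9 and 32.2 FPKM. S100a8 and S100a9, at means of 0.919 and 0.274 FPKM, did not pass the filter.

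Txnip (ENSRNOG00000021201, chromosome 2, 198683159 to 198686974) was at 58.1, 77.2 and 61.6 FPKM in PDN 1, PDN 2 and PDN 3, against 42.4, 52.3 and 40.1 FPKM in control 1, control 2 and control 3. The lowest PDN library lay above the highest control. The means were 65.6 ± 10.2 FPKM in PDN and 44.9 ± 6.48 FPKM in controls (SD, n = 3 each), a log2 difference of 0.54 ± 0.14 (SE) with a 95% interval of 0.22 to 0.85. The unadjusted p was 0.00487, the 78th smallest of the 13282 genes, and the adjusted p was 0.811 in limma, so Txnip did not pass over all genes. Under the 17 alternatives tried the log2 difference ran from 0.41 to 0.69, with an unadjusted p of at most 0.0196 and an adjusted p of at least 0.49.

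**Figure D4:**
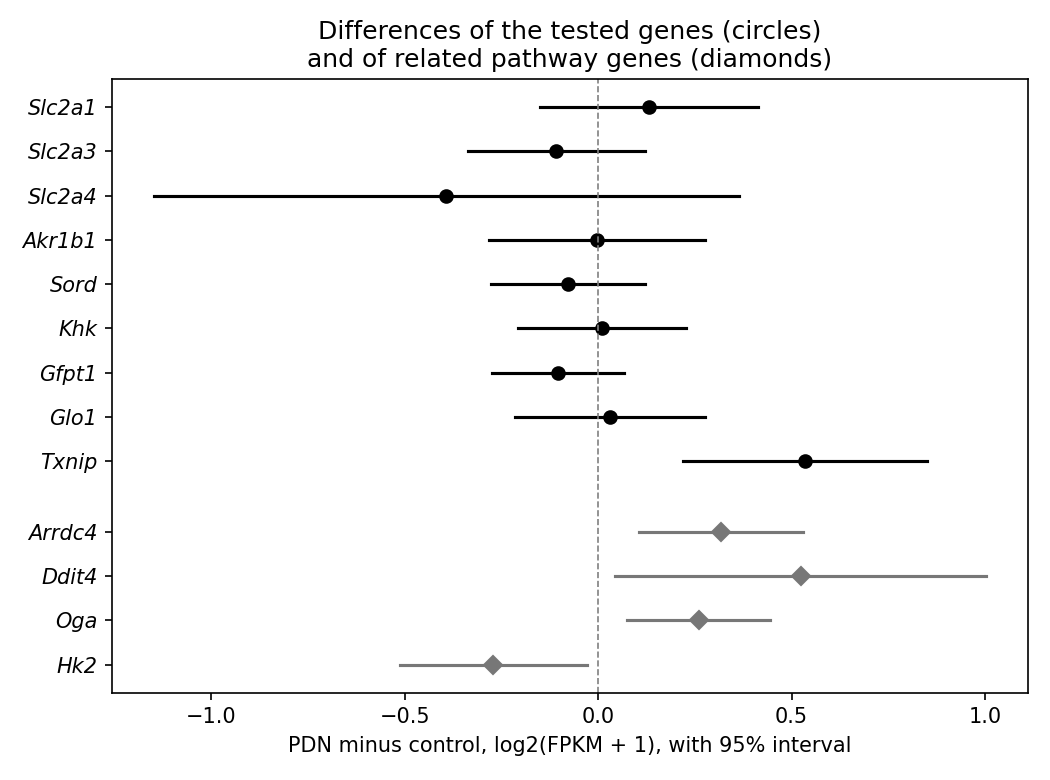
Log2(FPKM + 1) in PDN minus that in control (horizontal axis, dashed line at 0) with its 95% interval from limma, for the 9 tested genes (circles) and for the 4 related genes at an unadjusted p under 0.05 (diamonds). Txnip, at 0.54, is the 1 circle whose interval lies off 0, and the interval of Slc2a4 is the widest, from -1.15 to 0.36. No gene shown passed the threshold after adjustment over all genes.

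The related gene Arrdc4, an arrestin-like gene that shares the glucose-responsive factors of Txnip, was at 13.3, 12.5 and 10.7 FPKM in PDN, against 9.8, 9.43 and 9.37 FPKM in controls. All 3 PDN libraries lay above the 3 controls, which were close together. Its log2 difference was 0.32 ± 0.09 (SE; 95% interval 0.11 to 0.53), with an unadjusted p of 0.00905 and an adjusted p of 0.97 in limma. The order of the PDN libraries differed between both genes, since PDN 2 was highest for Txnip and PDN 1 for Arrdc4. Ddit4, which encodes a stress-induced inhibitor of mTORC1 that glucocorticoids also induce, was at 52.2, 30.7 and 33.0 FPKM in PDN, against 21.5, 29.0 and 27.7 FPKM in controls. Its groups did not overlap either, with PDN 1 far above the rest, and the log2 difference of 0.52 ± 0.21 (SE; unadjusted p = 0.0364; adjusted p = 0.999 in limma) was 0.29 without PDN 1 (unadjusted p = 0.0695).

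Of the 10 genes found around Txnip (thioredoxins, their reductases, the Mlx factors, arrestin-like genes, Ddit4 and Nlrp3), 9 were tested, with 3 estimates higher and 6 lower in PDN and a median of -0.046. Arrdc4 and Ddit4 were the 2 at an unadjusted p under 0.05, both higher in PDN. Of all tested genes 4.72% reached that level, and 1.83% did so with higher values in PDN. Mlxip, which encodes MondoA, was at 6.03, 5.35 and 5.38 FPKM in PDN, against 5.39, 5.32 and 5.16 FPKM in controls, and its groups overlapped. Txn1, the thioredoxin that the Txnip protein binds, was at 303 ± 41.9 FPKM in PDN and 317 ± 49.0 FPKM in controls (SD, n = 3 each). Nlrp3, an inflammasome sensor that the Txnip protein is reported to bind, was at 0.48, 0.719 and 0.646 FPKM in PDN, against 0.779, 1.15 and 0.815 FPKM in controls. Its PDN libraries lay below the controls, but at levels under the filter, so it has no test.

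The promoter of Arrdc4 is shown because Arrdc4 had the smallest p of the genes listed around Txnip, and the promoter of Txnip itself was not at hand. MondoA and ChREBP bind longer sequences built on the motif CACGTG. Only CACGTG itself was searched, and it does not tell which factor could bind. It is RefSeq sequence of the build GRCr8, chr1:131793376-131793675 on the minus strand, from 250 bases before to 50 bases after the start of the gene, and the capitals mark CACGTG.
Arrdc4: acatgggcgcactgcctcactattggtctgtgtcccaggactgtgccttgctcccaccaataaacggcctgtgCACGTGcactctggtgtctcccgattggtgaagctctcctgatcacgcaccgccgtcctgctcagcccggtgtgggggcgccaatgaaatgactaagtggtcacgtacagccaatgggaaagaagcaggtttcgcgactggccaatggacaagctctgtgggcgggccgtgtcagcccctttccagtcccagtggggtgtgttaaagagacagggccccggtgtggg

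The motif, which reads the same on both strands, begins 177 bases before the start of Arrdc4. No promoter was at hand for Txnip, Slc2a3, Slc2a4 and Akr1b1, so these were not searched. Promoters of this length were at hand for Slc2a1, Sord, Khk, Gfpt1, Ager and Glo1, and 0 of these 6 held CACGTG. It was also not found in those of Oga, Ddit4 and Hk2. Of 33469 rat promoters of 300 bases, 6.42% held it. A match in these letters is a description and not a binding site. Longer or inexact forms of the motif were not searched, so a promoter without CACGTG may still hold them.

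**Figure D5:**
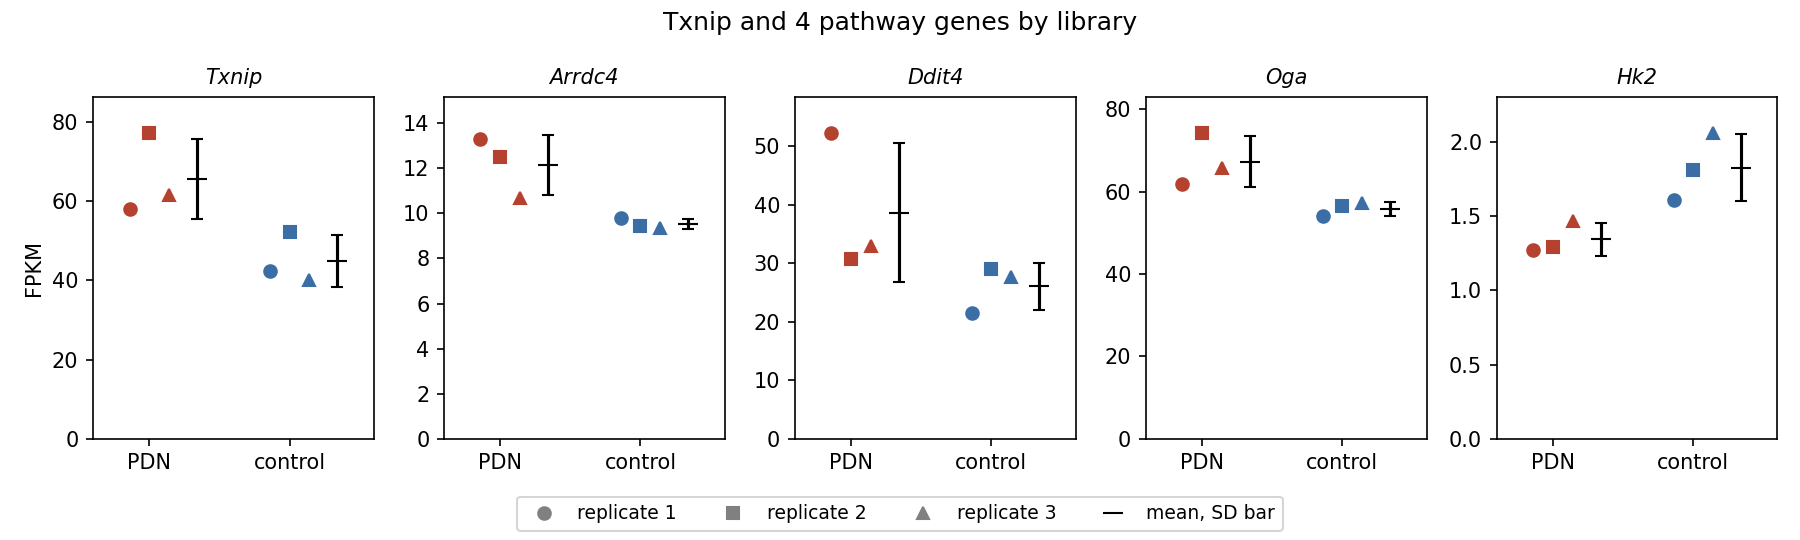
FPKM (vertical axes, each starting at 0) of Txnip, Arrdc4, Ddit4, Oga and Hk2 in PDN and control libraries. Points are libraries, shapes are replicate numbers, and bars are the mean with its SD (n = 3). The PDN points lie above the control points in the first 4 panels and below them for Hk2, and the controls of Arrdc4 lie within 9.37 to 9.8 FPKM.

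Over the 6 libraries the genes most like Txnip, by the measure used above, were Lsmem2 (root mean square difference 0.115), Fndc7 (0.123) and Hapln2, a link protein of the matrix at nodes of Ranvier (0.135). Lsmem2 was at 3.13, 3.22 and 3.04 FPKM in PDN, against 1.69, 2.28 and 1.69 FPKM in controls. Among controls it was highest in control 2, like Txnip, which follows from its choice by likeness to Txnip. Marker sums of macrophages and fibroblasts separated the groups, in the direction opposite to Txnip, while those of the other cell types examined overlapped. Lists with overlapping sums still held genes with lower estimates in PDN. These were 3 of 3 tested red blood cell genes, with a median log2 difference of -0.906. They were also 5 of 6 pericyte and smooth muscle genes (median -0.202) and 5 of 6 satellite glia genes (median -0.132). Sensory neuron genes had 7 estimates higher and 5 lower, Schwann cell genes 2 and 4, and skeletal muscle genes 4 and 2. PDN libraries lay below the controls for 4 of 6 tested macrophage and 2 of 6 tested fibroblast genes, beside 6.24% of all tested genes. The 7 macrophage markers summed to 18.7 to 26.4 FPKM in PDN and 29.0 to 40.1 FPKM in controls, and the 6 fibroblast markers to 317.7 to 359.5 FPKM in PDN and 369.8 to 411.3 FPKM in controls, with 0 markers of either list at 0. The part of these cell types in the Txnip values was not tested. Without the muscle-rich pair, control 2 and PDN 3, the log2 difference of Txnip was 0.69.

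Other steps that compete for the glucose taken up were also examined. Of 6 genes of hexose phosphorylation, 4 were tested, with 1 higher and 3 lower in PDN and a median of -0.054. Hk2, the hexokinase typical of insulin-sensitive tissue, was at 1.27, 1.29 and 1.47 FPKM in PDN, against 1.61, 1.81 and 2.06 FPKM in controls. Its PDN libraries lay below all controls, with a log2 difference of -0.27 ± 0.10 (SE; unadjusted p = 0.0332; adjusted p = 0.999 in limma). Hk1, the main hexokinase of neural tissue, was far more abundant and nearly level, at 99.9 ± 0.798 FPKM in PDN and 102 ± 5.31 FPKM in controls (SD, n = 3 each). Of the pentose phosphate pathway, 7 genes were tested, with 3 higher and 4 lower, 0 at an unadjusted p under 0.05 and a median of -0.004. Its transketolase gene Tkt was at 99.5 ± 6.87 FPKM in PDN and 101 ± 6.06 FPKM in controls, and Taldo1, transaldolase, at 72.5 ± 7.99 FPKM in PDN and 72.5 ± 5.1 FPKM in controls.

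Together the pathway lists held 67 tested genes besides the 10, with 30 estimates higher and 37 lower in PDN and a median log2 difference of -0.01. At an unadjusted p under 0.05 there were 3 higher (Arrdc4, Ddit4 and Oga) and 1 lower (Hk2), which is 4 of 67, beside the 4.72% of all tested genes, and 0 passed after adjustment. PDN libraries lay above the controls in 4 of the 67 and below them in 2, beside 3.69% and 6.24% of all tested genes.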

How the data were processed

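RNA was extracted with Trizol and strand-specific libraries were made from total RNA, per the labels' protocols. The authors deposited FPKM values per gene; no aligner, quantifier, annotation or genome build is given in the sources used. A second table is named for read counts. Its deposited whole numbers were treated as a score, since many followed from the FPKM values. Among values above 1000, 54.5% to 54.9% equalled FPKM times gene span times 1 constant per library (relative tolerance 0.001), and 0 exceeded it. Reading these constants as fragments per library is an assumption that was not checked. This second table served only as an alternative, and counting intervals were not computed.

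Genes at 1 FPKM or more in at least 3 libraries were put on the log2(FPKM + 1) scale and fitted in R 4.3.3 by limma 3.58.1 (trended empirical Bayes, group as the 1 term), Benjamini-Hochberg adjusted over 13282 genes, threshold 0.05. This scale understates changes of low genes. The test was checked on simulated data. The changes planted there were larger than the differences given for the genes described here, so that check does not speak to differences of their size. A library is taken as 1 rat, as the design text counts 3 per group.

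The genes and lists were chosen with earlier results of these data known. The naming rule took all 10 genes; in each pathway list the tested genes at an unadjusted p under 0.05, or else the 2 most abundant; and the 3 genes nearest in pattern to each of the 3 tested genes of the 10 with the widest range of log2(FPKM + 1) over the libraries. Other named genes were chosen after their values were seen. Of 88 pathway entries, 81 were found by name.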

Additional observations from a re-analysis of the deposited data

How the results depend on the processing

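Of the 9 tested genes, Slc2a1, Slc2a3, Slc2a4, Sord, Gfpt1 and Txnip kept the sign of their difference under every alternative that could be fitted, and 0 of the 9 passed an adjusted p of 0.05 under any; Slc2a4 and Hk2 had no value where a mean of at least 5 FPKM was asked for. Signs turned for genes with differences near 0. Akr1b1 was at 0.018 after median-of-ratios and 0.02 after upper-quartile scaling, 0.067 without control 2 and PDN 3, 0.017 with array weights and 0.006 in the whole-number table, and at -0.089 to 0.124 with 1 library left out. Khk was at -0.02 with array weights and at -0.07 to 0.058 with 1 library left out, and Glo1 at -0.02 to 0.129 with 1 library left out. The ratio of Akr1b1 to Sord differed by -0.007 to 0.166 (log2) with 1 library left out and by 0.18 without control 2 and PDN 3, and that of Akr1b1 to Glo1 by -0.084 to 0.025, and by 0.014 without control 2 and PDN 3. The count of all genes past the adjusted threshold, 0, became 9 without control 2 and PDN 3, 1 without the filter, 1 with robust empirical Bayes and 2 in the whole-number table. With 1 library left out it ran from 0 to 6, at 4 without PDN 1, 6 without PDN 3, 3 without control 1 and 2 without control 3. Of all genes at an unadjusted p under 0.05, 38.8% were higher in PDN, a share of 49.4% after median-of-ratios scaling and of 52.5% after upper-quartile scaling.

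The same alternatives were run for Arrdc4, Oga, Ddit4 and Hk2 after their values were seen. Each kept its sign, and the unadjusted p reached at most 0.0311 for Arrdc4, 0.0546 for Oga, 0.119 for Ddit4 and 0.112 for Hk2.

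The replicate numbers do not pair the animals as far as the labels say. Deviations of same-numbered libraries from their group means correlated at 0.171, -0.12 and -0.086 across genes for replicates 1, 2 and 3, and 1 of the 3 pairs matched best within its own number. With the replicate number as a block, 0 genes passed the adjusted threshold, 849 genes were at an unadjusted p under 0.05, and Txnip had the difference of 0.535 with an unadjusted p of 0.000206 and an adjusted p of 0.49.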
